A study of Mus musculus with 6 samples.

Results

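The genes described here encode receptors for cytokines and chemokines, the protein signals by which immune cells change one another's activity and movement. Their response was measured in RAW 264.7 cells, an established mouse macrophage line transformed by a leukaemia virus, after 2 h with lipopolysaccharide (LPS) from bacterial envelopes at 100 ng/ml and LPS-binding protein (LBP) at 100 pM. The comparison cells were untreated and cultured for the same 2 h. Each of 6 microarrays carried treated RNA in one dye and untreated RNA in the other, in 3 dye-swap pairs that the labels number as sets 1 to 3. Nothing in the labels says that the sets were separate cultures, so p-values measure only the spread between these sets, which may be technical. Members were chosen by gene symbol: interleukin receptor names, Ccr and Cxcr names with a number, colony-stimulating factor receptor names, and Ifnar1, Ifnar2, Ifngr1, Ifngr2, Il6st, Osmr, Lifr and Ccrl2. That gave 108 of 16281 probes, for 58 of 10698 named genes, among them the pseudogene Csf1r-ps. Of these probes 81 had a value on all 6 arrays, 20 on some and 7 on none, so 50 genes could be tested.

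Cytokine receptors mostly work as pairs or trios of chains. A chain particular to 1 ligand joins a chain shared by several, and kinases bound inside the cell then phosphorylate STAT transcription factors. Receptors of the interleukin 1 family carry a signalling domain like that of the LPS receptor and use its adaptor MyD88, whereas chemokine receptors cross the membrane repeatedly and act through G proteins. Macrophages are known to depend on the receptor encoded by Csf1r for survival, to be activated through the interferon gamma receptor and to be restrained through the interleukin 10 receptor.

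After 2 h, 9 of the 50 tested receptor genes were higher and 7 were lower (limma, Benjamini-Hochberg adjusted p under 0.05 over 11231 features), and 34 did not pass. Over all features 7.35% were higher and 7.45% lower, against 18.0% and 14.0% of the receptors. The median log2 ratio of the receptors was -0.00, as was that of all features, and 25 of the 50 had a positive mean. Changes were small. The largest rise was 1.67-fold and the largest fall 1.46-fold, and 0 of 50 changed by over 2-fold as the mean of their probes. Values below are log2 ratios of treated over untreated, as the mean ± SD of 3 sets. All 16 called genes had the same sign in every set, and 11 had it on every array. The data are of bulk RNA, so fewer cells carrying a transcript and less of it per cell cannot be told apart. Spot intensities were not used here, so a ratio near 0 does not show that a gene was expressed.

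**Figure D1:**
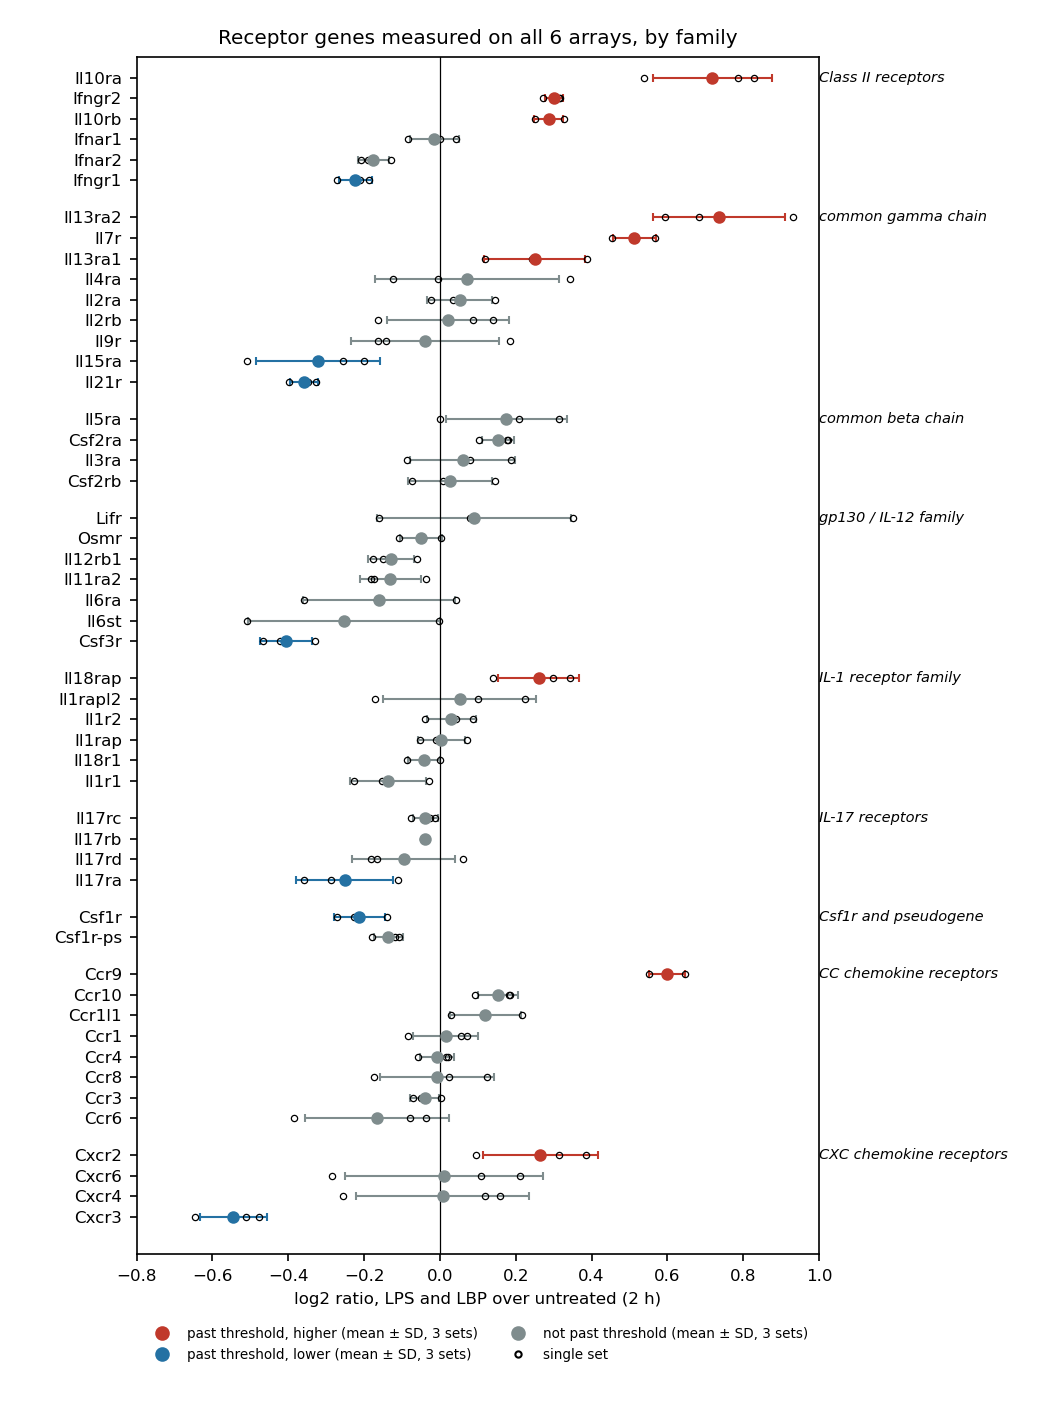
Log2 ratio of treated over untreated for the 50 receptor genes with a complete probe, grouped by receptor family; filled points and bars are the mean ± SD of 3 sets, and open points are single sets. Red genes (9) were higher and blue genes (7) lower, and the grey ones lie between -0.25 and 0.18.

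The class II receptors, which bind interferons and the interleukin 10 family, held 3 higher and 1 lower gene among 6 tested. Il10ra, the ligand-binding chain of the interleukin 10 receptor, stood at 0.77, 0.54 and 0.83 in sets 1 to 3 with the treated RNA in Cy5, and at 0.89, 0.54 and 0.75 with it in Cy3. As the mean of its 2 probes it was above 0 on every array, at 0.72 ± 0.16 (1.65-fold, adjusted p = 0.0012). The probes shifted with the dye in opposite directions. One stood at 0.81 with treated RNA in Cy5 and 1.23 with it in Cy3, and the other at 0.61 and 0.22, with -0.07 on the Cy3 array of set 2. Its partner Il10rb, which other receptors of the class also use, stood at 0.32, 0.13 and 0.24 with Cy5 and 0.33, 0.38 and 0.33 with Cy3. It was higher by a smaller amount, 0.29 ± 0.04 (1.22-fold, adjusted p = 0.00902), with probes at 0.28 and 0.30. Both chains of the interleukin 10 receptor were thus higher, and Il10 itself, the ligand, rose to 2.06 ± 0.17.

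The chains of the interferon gamma receptor moved in opposite directions. Ifngr2, the signalling chain, was the steadiest riser, at 0.25, 0.32 and 0.34 with Cy5 and 0.30, 0.31 and 0.29 with Cy3. Its mean was 0.30 ± 0.02 (1.23-fold, adjusted p = 0.00697). Ifngr1, the ligand-binding chain, was lower at -0.22 ± 0.04 (1.17-fold, adjusted p = 0.0244). One Ifngr1 probe lay between -0.26 and -0.17 on all arrays. The other lay between -0.54 and -0.51 with the treated RNA in Cy5 but between -0.06 and 0.21 with it in Cy3, so its fall was seen in 1 dye orientation. Of the type I interferon receptor, Ifnar2 stood at -0.18 ± 0.04 (adjusted p = 0.0525 by limma) and below 0 on 6 of 6 arrays, and Ifnar1 at -0.01 ± 0.06 (0.885). A second Ifnar2 probe, with values on 3 arrays, lay between -0.93 and -0.29. With the set as a replicate block over single arrays, the fit that called the most features, Ifnar2 passed (adjusted p = 0.0141). It also passed with a dye term, but not over single arrays with neither. The ligand gene Ifnb1 rose to 3.58 ± 0.70, while Ifng stood at 0.02 ± 0.03. Without set 3, Ifngr2 had adjusted p = 0.0996 and Il10rb 0.11. Ifngr2 also lost its call without the Cy5 array of set 2 (adjusted p = 0.0808), and Il10rb without either array of set 2 (0.0677 and 0.127). Ifngr1 lost its call without set 1 (0.0872) or set 3 (0.183) and without any single array but the Cy3 array of set 3 (0.0714 to 0.408). In the RefSeq order of protein-coding genes, Ifnar2, Il10rb, Ifnar1 and Ifngr2 are direct neighbours, and higher genes alternate there with genes that did not pass.

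The common gamma chain pairs with private chains to make the receptors of interleukins 2, 4, 7, 9, 15 and 21, and the interleukin 13 receptor chains share the interleukin 4 system. Among 9 tested genes of this group 3 were higher and 2 lower. Il13ra2, a decoy receptor that binds interleukin 13 without the usual signal, stood at 0.82, 0.14 and 0.45 in sets 1 to 3 with the treated RNA in Cy5, and at 1.04, 1.23 and 0.74 with it in Cy3. As the mean of its probes, all arrays were above 0 and the Cy3 arrays of sets 1 and 2 were highest. The mean, 0.74 ± 0.17 (1.67-fold, adjusted p = 0.00141), was the largest among the receptors, with probes at 0.69 and 0.78. The first probe stood at 0.27 with Cy5 and 1.11 with Cy3, with -0.02 on the Cy5 array of set 2. The second stood at 0.66 and 0.90. Without the Cy3 array of set 2 the mean of the gene was 0.55 (adjusted p = 0.115). Il13ra1, the signalling chain, was higher at 0.25 ± 0.13 (1.19-fold, adjusted p = 0.0453). Its call was lost without set 1 (adjusted p = 0.133), without set 3 (0.244) and without any single array (0.0611 to 0.301).

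Il7r, the private chain of the interleukin 7 receptor and of the TSLP receptor, stood at 0.66, -0.14 and 0.38 with Cy5 and at 0.25, 1.27 and 0.65 with Cy3. The lowest and the highest value came from the swapped arrays of set 2. They cancel in the mean of that set, which leaves 0.51 ± 0.06 over the sets (1.43-fold, adjusted p = 0.0011), whereas the fit to single arrays with no replicate block gave adjusted p = 0.0889. Without the Cy5 or the Cy3 array of set 2 Il7r stood at 0.75 (adjusted p = 0.0969) or 0.28 (0.362). Crlf2, which encodes the partner chain in the TSLP receptor and is no member by name, was higher at 0.55 ± 0.05 (adjusted p = 0.000774, 6 of 6 arrays).

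The lower genes of the group were Il21r and Il15ra. Il21r, the private chain of the interleukin 21 receptor, stood at -0.20, -0.25 and -0.21 with Cy5 and at -0.49, -0.40 and -0.58 with Cy3. It was below 0 everywhere, with a mean of -0.36 ± 0.04 (1.28-fold, adjusted p = 0.00389), and a second probe had a value on 1 array only, -1.38. Without set 3 its adjusted p was 0.0689, and without the Cy3 array of set 1 it was 0.0579. Il15ra, which presents interleukin 15 to neighbouring cells, ranged from -0.73 to 0.32 and was above 0 on 2 of 6 arrays. Its mean of -0.32 ± 0.16 passed over sets (adjusted p = 0.0284) but not over single arrays with the set as a replicate block (0.0693) or with no replicate block (0.305). It also lost its call without set 1 (0.0535) or set 3 (0.175) and without 4 of the single arrays, the Cy5 arrays of sets 2 and 3 and the Cy3 arrays of sets 1 and 2 (0.0549 to 0.634). Il4ra (0.07 ± 0.24), Il2ra (0.05 ± 0.09), Il2rb (0.02 ± 0.16) and Il9r (-0.04 ± 0.20), which encode the private or shared chains of other receptors of the group, did not pass, with adjusted p of 0.678, 0.58, 0.878 and 0.797. The 95% interval of Il4ra ran from -0.15 to 0.29. A second Il9r probe had a value in set 1 alone, -4.05 with the treated RNA in Cy5 and 3.53 with it in Cy3, so the Cy3 channel was the brighter on both arrays whichever RNA it held.

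**Figure D2:**
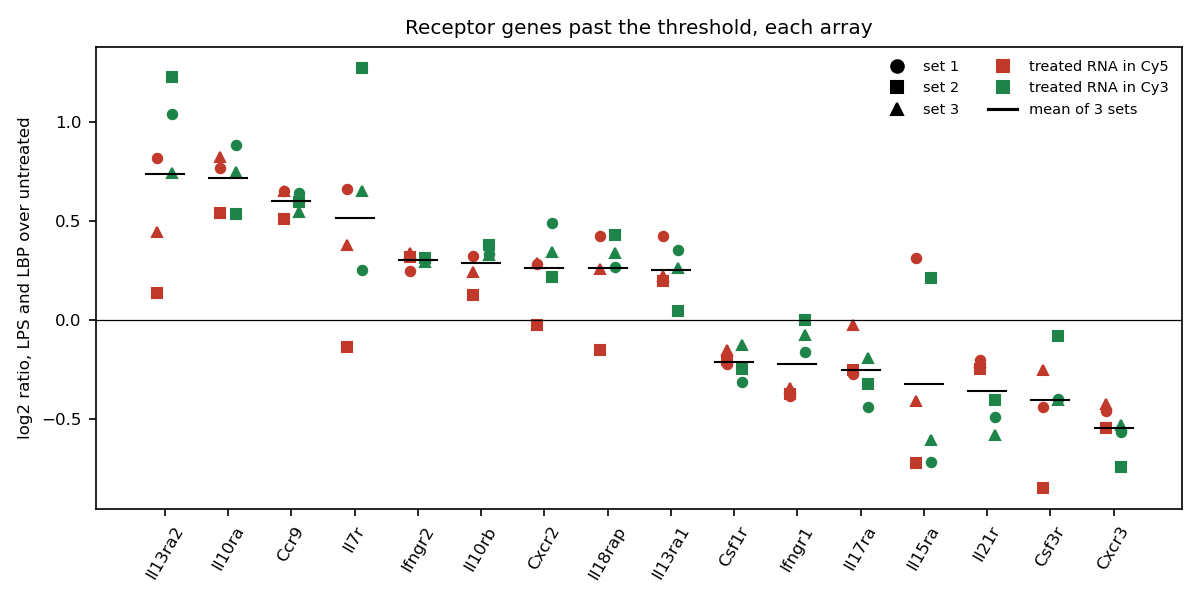
Log2 ratio of treated over untreated on each of 6 arrays for the 16 receptor genes past the threshold; colour gives the dye of the treated RNA, marker shape the set, and the black line the mean of 3 sets. Ifngr2 and Cxcr3 keep close values on both dyes, while Il7r and Il15ra spread across 0. Ccr9 and Il10ra also keep close values, but as means of several probes, of which 2 in each gene shift oppositely.

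Receptors that signal through the common beta chain held 0 called genes among 4 tested by limma. Csf2ra, the private chain of the GM-CSF receptor, was above 0 on 6 of 6 arrays at 0.15 ± 0.04 (adjusted p = 0.0803). It passed with the set as a replicate block (0.0168) and with a dye term, but not over single arrays with neither. The private chains Il5ra (0.18 ± 0.16) and Il3ra (0.06 ± 0.14) and the shared chain Csf2rb (0.03 ± 0.11) did not pass, with adjusted p of 0.158, 0.605 and 0.813. At an unadjusted p under 0.05, 25 of all 50 receptors would have been counted. The share of all features at that level was not counted, so this number has no comparison. The ligand gene Csf2 was higher at 0.61 ± 0.33.

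In the gp130 and interleukin 12 receptor family 1 of 7 tested genes was lower and 0 higher. Csf3r, the receptor of the granulocyte growth factor G-CSF, stood at -0.44, -0.85 and -0.25 with Cy5 and -0.40, -0.08 and -0.41 with Cy3. It was below 0 on all arrays, with set 2 holding both the lowest and the highest value. The mean was -0.41 ± 0.07 (1.33-fold, adjusted p = 0.00326), and without the Cy5 or the Cy3 array of set 2 the adjusted p was 0.208 or 0.0582. Its ligand gene Csf3 moved the other way, to 2.91 ± 0.40. Il6st, which encodes the shared chain gp130, stood at -0.25 ± 0.25 (adjusted p = 0.142), with -1.14 on the Cy5 array of set 2 and between -0.28 and 0.12 on the others. Il6ra, the binding chain for interleukin 6, had complete probes that differed in sign, at -0.28, -0.28 and 0.08. As their mean it did not pass (-0.16 ± 0.20, adjusted p = 0.257), but without set 2 it stood at -0.26 with adjusted p = 0.0192. Il11ra2 (-0.13 ± 0.08), Il12rb1 (-0.13 ± 0.06), Osmr (-0.05 ± 0.06) and Lifr (0.09 ± 0.26) did not pass either, with adjusted p of 0.159, 0.141, 0.569 and 0.609. The ligand genes Il6 and Lif were higher at 1.14 ± 0.42 and 0.72 ± 0.10.

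The interleukin 1 receptor family held 1 higher and 0 lower genes among 6 tested by limma. Il18rap, the accessory chain of the interleukin 18 receptor, was higher at 0.26 ± 0.11 (1.20-fold, adjusted p = 0.0284), above 0 on 5 of 6 arrays. The probes of this gene stood at 0.36 ± 0.03 and 0.16 ± 0.23, and only the first passed when probes were tested singly (adjusted p = 0.00348). Without set 1 the adjusted p of Il18rap was 0.108 and without set 3 it was 0.222. It also lost its call without the set 1 or the set 2 array of either dye (0.0582 to 0.485). Il18r1, the binding chain and its direct neighbour in the genome, stood at -0.04 ± 0.04 (adjusted p = 0.624). The ligand gene Il18 stood at -0.00 ± 0.04. None of the chains that bind interleukin 1 passed: the signalling receptor Il1r1 (-0.14 ± 0.10, adjusted p = 0.17), the accessory chain Il1rap (0.00 ± 0.06, adjusted p = 0.973) and the decoy Il1r2 (0.03 ± 0.06, adjusted p = 0.752). Il1b, Il1a and the antagonist gene Il1rn were meanwhile higher at 3.98 ± 0.12, 2.54 ± 0.40 and 1.98 ± 0.25. The 95% intervals of Il1r1, Il1rap and Il1r2 reached from -0.27 to -0.00, from -0.11 to 0.12 and from -0.09 to 0.15. Il1rapl2 stood at 0.05 ± 0.20 (adjusted p = 0.735).

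Among interleukin 17 receptors 1 of 4 was lower and 0 higher. Il17ra, the chain shared by the family, was at -0.25 ± 0.13 (1.19-fold, adjusted p = 0.0413), below 0 on 6 of 6 arrays as the mean of its probes. These stood at -0.27 ± 0.18 and -0.24 ± 0.08. Tested singly by limma, the first did not pass (adjusted p = 0.0581) and the second did (0.0298). The first was at 0.05 on the Cy5 array of set 3. The gene lost its call without set 1 (0.142) or set 3 (0.0832). It also lost its call without any single array but the Cy5 array of set 3 (0.0986 to 0.187). Il17rd (-0.10 ± 0.14), Il17rb (-0.04 ± 0.00) and Il17rc (-0.04 ± 0.03) did not pass, with adjusted p of 0.395, 0.618 and 0.652. Csf1r, the receptor kinase of the macrophage growth factor M-CSF, was lower on 6 of 6 arrays. It stood at -0.23, -0.20 and -0.15 with Cy5 and -0.32, -0.25 and -0.13 with Cy3, a narrow spread around -0.21 ± 0.07 (1.16-fold, adjusted p = 0.0354). Its call was lost without set 1 (0.117), set 2 (0.0574) or set 3 (0.147) and without any single array (0.0633 to 0.2). The pseudogene Csf1r-ps stood at -0.14 ± 0.04 (adjusted p = 0.108). Whether its probe and that of Csf1r read each other's transcript was not tested. The M-CSF gene Csf1 stood at 0.16 ± 0.17.

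Chemokine receptors were divided. Of 8 tested CC receptors 1 was higher and 0 lower, and of 4 tested CXC receptors 1 was higher and 1 lower. Cxcr3, the receptor of Cxcl10 and Cxcl11, showed the largest fall, at -0.46, -0.55 and -0.42 with Cy5 and -0.57, -0.74 and -0.53 with Cy3. All arrays were low, and the mean was -0.54 ± 0.09 (1.46-fold, adjusted p = 0.00129). Of its ligand genes, Cxcl10 was higher at 3.70 ± 0.26 and Cxcl11 at 2.14 ± 0.35, while Cxcl9 was not among the genes called higher. A second Cxcr3 probe, with values on 4 arrays between -0.61 and 0.26, had a mean of -0.06. With missing values allowed the 2 probes together gave -0.38 (adjusted p = 0.0225). Cxcr4, the receptor of Cxcl12, stood at 0.01 ± 0.23 (adjusted p = 0.972), and Cxcr6, the receptor of Cxcl16, at 0.01 ± 0.26 (0.958). Cxcl16 was higher at 1.14 ± 0.05.

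The calls of Ccr9 and Cxcr2 each rested on 1 of 3 probes. Ccr9, known from the homing of lymphocytes to the gut, was higher at 0.60 ± 0.05 as the mean of its probes (1.52-fold, adjusted p = 0.000542). The probe whose annotated accession is a RefSeq transcript stood at 1.97, 1.91 and 1.68 in sets 1 to 3 with Cy5 and at 1.92, 1.73 and 1.66 with Cy3, a mean of 1.81 ± 0.14 (3.51-fold). The other Ccr9 probes stood at 0.06 ± 0.05 and -0.07 ± 0.10. They lay between -0.38 and 0.42 and on both sides of 0. These probes shifted oppositely with the dye, at -0.07 with Cy5 and 0.20 with Cy3, and at 0.03 and -0.18. Cxcr2, a receptor of the neutrophil attractants, had a mean of 0.26 ± 0.15 (1.20-fold, adjusted p = 0.0467). Of its probes, the high one lay between 0.50 and 1.11 on all arrays (0.77 ± 0.23, 1.71-fold) and the others, of which 1 has a RefSeq accession, stood at 0.05 ± 0.03 and -0.02 ± 0.20. What separates the probes of these genes was not tested. The call of Cxcr2 was lost without set 1 (adjusted p = 0.157), set 3 (0.282) or any single array (0.0607 to 0.29), and that of Ccr9 was kept in each of these.

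**Figure D3:**
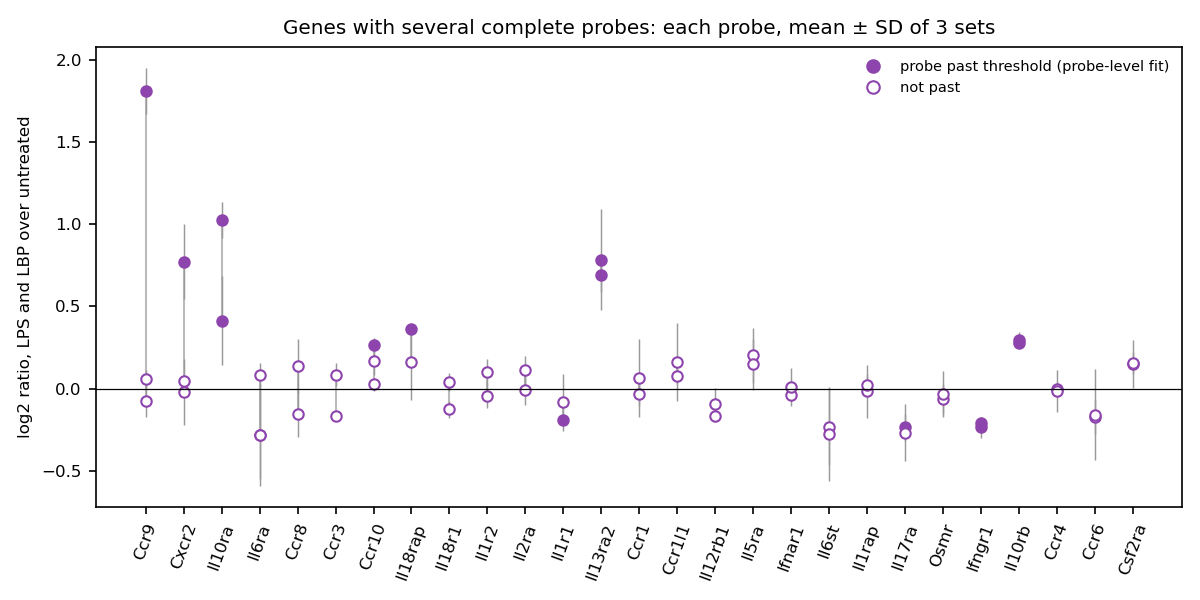
Log2 ratio of treated over untreated for each complete probe of the 27 receptor genes that have several, as the mean ± SD of 3 sets; filled points passed when probes were tested singly. Genes are ordered by the distance between their probes, which is 1.88 for Ccr9, 0.79 for Cxcr2 and 0.61 for Il10ra.

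When each probe was tested by itself, 13 of 81 receptor probes were higher and 9 lower, against 7.50% and 7.45% of all 13224 complete probes. The probes of a receptor gene lay a median of 0.09 apart, against 0.08 for all 1808 named genes with several complete probes. Il10ra had both probes past the threshold, at 1.02 ± 0.11 (2.03-fold, adjusted p = 8.9e-05) and 0.41 ± 0.27 (1.33-fold, adjusted p = 0.0359). Ccr10 had 1 probe past it (0.26 ± 0.04, adjusted p = 0.0134) and 2 not (0.17 ± 0.08 and 0.03 ± 0.04). Of Il1r1, 1 probe was lower (-0.19 ± 0.03, adjusted p = 0.0434) and the other was not past (-0.08 ± 0.17). The remaining CC receptors did not pass as genes: Ccr1 (0.02 ± 0.09), Ccr1l1 (0.12 ± 0.09), Ccr3 (-0.04 ± 0.04), Ccr4 (-0.01 ± 0.04), Ccr6 (-0.17 ± 0.19), Ccr8 (-0.01 ± 0.15), with adjusted p from 0.212 to 0.958, and Ccr10 (0.15 ± 0.05, adjusted p = 0.0856). With the set as a replicate block Ccr10 passed (adjusted p = 0.0181), but not over single arrays without the block, with or without a dye term. Of 15 tested CC chemokine genes in the list of ligands 6 were higher and 0 lower by limma, with the largest mean for Ccl4 (3.36 ± 0.17). Of all features tested as genes 7.35% were higher and 7.45% lower.

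A further 8 receptor genes had no probe with a value on all arrays and were not tested. Ccrl2, a chemokine-binding receptor that does not signal like the others, had the highest values among them. Its first probe stood at 1.20 and 1.54 with Cy5 and at 2.20 and 1.29 with Cy3 in sets 2 and 3, a mean of 1.56 over 4 arrays. A second Ccrl2 probe lay between -0.47 and 0.32 on 5 arrays, and with missing values allowed both together gave 0.58 (adjusted p = 0.173). Ccr2, the receptor of Ccl2 on monocytes, lay between -0.38 and -0.15 on 4 arrays of 1 probe and between -0.36 and 0.20 on 5 arrays of the other, and together at -0.24 (adjusted p = 0.0644). Cxcr5 was measured on 4 arrays, between -0.08 and 0.53. Il1rl2 was measured on 4 arrays, between -0.36 and 0.11, and Il12rb2 on 5, between -0.38 and 0.31. The probes of Il27ra lay between -0.01 and 0.47 on 4 arrays and between -0.36 and 0.25 on 3. Those of Csf2rb2 lay between -0.91 and 0.85 on 4 arrays and between -0.36 and 0.22 on 5. With missing values allowed Cxcr5 (0.26), Il27ra (0.15), Csf2rb2 (-0.12), Il12rb2 (-0.05) and Il1rl2 (-0.22) had adjusted p from 0.0681 to 0.846. Ccr7 had no value on any array.

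The dye term passed the threshold for 1 of 50 receptors, Il17rb (adjusted p = 0.0495), in a limma fit with such a term. How many of all features passed for that term was not counted. Among called genes with different means in the orientations, Il13ra2 stood at 0.47 with the treated RNA in Cy5 and 1.00 with it in Cy3, and Il7r at 0.30 and 0.73, but the dye term did not pass for either (adjusted p = 0.173 and 0.421). Ifngr2, read by 1 probe, stood at 0.30 in both. Opposite signs in the orientations on every array were counted for receptor probes only, so the share of all probes is not known here. Of the 81 complete receptor probes, 8 from 7 genes had such opposite signs. Both Ccr8 probes did, at 0.49 with Cy5 and -0.22 with Cy3, and at -0.81 and 0.50, so the Ccr8 mean near 0 averages values that cancel. The other genes were Cxcr6, Il17rb and Il17rc, read by 1 complete probe each, and Ifnar1, Il6ra and Osmr, where 1 complete probe did so. Averaging the arrays of a set cancels such a shift but leaves the result resting on both arrays. In 1 orientation alone, 4 receptors passed with treated RNA in Cy5 and 6 with it in Cy3. Of all 11231 features 639 and 655 passed in these fits, against 1663 in the main fit. Il10ra, Ccr9 and Cxcr3 passed in each, with adjusted p from 0.0175 to 0.0305.

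**Figure D4:**
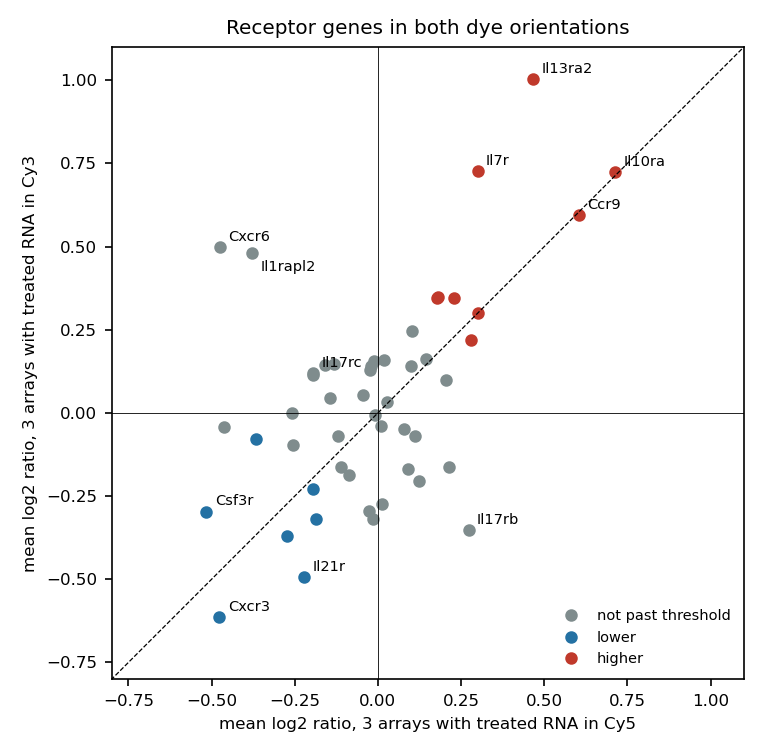
Mean log2 ratio of treated over untreated, in the orientation with treated RNA labelled Cy3 (3 arrays) against the orientation with it labelled Cy5 (3 arrays), 1 point per receptor gene; the dashed line marks equal values. Ifngr2 lies near the line, as do the means of the Ccr9 and of the Il10ra probes, and Cxcr6, Il1rapl2 and Il17rb lie far from it with opposite signs.

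Promoter windows were searched for motifs of factors known to act downstream of LPS or cytokines and in macrophages. RefSeq promoter windows of GRCm38.p6, 300 bases from 250 before to 50 after a start, matched 46 of the 58 genes with 54 windows, and 12 of the 16 called genes. Searched on both strands were the kappaB motif by name, the STAT motif TTCNNNGAA, the AP-1 motif TGANTCA and the Ets core AGGAAG, which PU.1 sites contain. The kappaB motif was found in 8 of 54 receptor windows (14.8%) against 4.51% of all 32851 windows. The STAT motif was found in 9 (16.7%) against 8.3%, the AP-1 motif in 8 (14.8%) against 7.81% and the Ets core in 23 (42.6%) against 35.4%. Among 7 windows of higher genes, kappaB, STAT and AP-1 motifs were found in 1 each. Among 6 windows of lower genes, 0 held kappaB or STAT and 1 held AP-1. Of 34 windows of tested genes that did not pass, 5 held kappaB. These are matches of letters, not sites shown to be bound. Shown are the 3 higher genes with a kappaB, STAT or AP-1 match and the called gene with the most Ets cores, 5′ to 3′ on the gene's strand, with motif matches in capitals. No matches overlap in these windows. The Ifngr2 window (chr16:91546809-91547108, + strand) has a kappaB match starting 75 bases before the start. That of Il13ra2 (chrX:147429143-147429442, - strand) has AP-1 at 193. That of Il7r (chr15:9529827-9530126, - strand) has STAT at 142 and an Ets core at 48. That of Csf3r (chr4:126024409-126024708, + strand) has Ets cores at 130, 94, 85 and 20.
Ifngr2: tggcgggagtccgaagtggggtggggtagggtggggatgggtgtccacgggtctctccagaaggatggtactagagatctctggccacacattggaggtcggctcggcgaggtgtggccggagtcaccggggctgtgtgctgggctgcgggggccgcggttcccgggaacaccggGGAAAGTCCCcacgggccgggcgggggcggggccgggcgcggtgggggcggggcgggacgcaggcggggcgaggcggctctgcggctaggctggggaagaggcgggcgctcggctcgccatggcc
Il13ra2: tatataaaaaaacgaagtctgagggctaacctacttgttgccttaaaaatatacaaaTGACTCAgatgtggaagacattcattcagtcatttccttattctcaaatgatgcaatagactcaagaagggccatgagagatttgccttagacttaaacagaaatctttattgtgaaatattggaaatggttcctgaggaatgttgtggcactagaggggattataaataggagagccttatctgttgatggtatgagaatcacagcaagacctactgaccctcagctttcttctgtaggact
Il7r: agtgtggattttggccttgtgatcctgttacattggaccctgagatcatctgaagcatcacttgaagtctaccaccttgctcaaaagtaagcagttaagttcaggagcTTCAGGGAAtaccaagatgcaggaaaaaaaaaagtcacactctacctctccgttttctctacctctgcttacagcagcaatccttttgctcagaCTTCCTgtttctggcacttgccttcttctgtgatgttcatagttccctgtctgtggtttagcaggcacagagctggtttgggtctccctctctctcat
Csf3r: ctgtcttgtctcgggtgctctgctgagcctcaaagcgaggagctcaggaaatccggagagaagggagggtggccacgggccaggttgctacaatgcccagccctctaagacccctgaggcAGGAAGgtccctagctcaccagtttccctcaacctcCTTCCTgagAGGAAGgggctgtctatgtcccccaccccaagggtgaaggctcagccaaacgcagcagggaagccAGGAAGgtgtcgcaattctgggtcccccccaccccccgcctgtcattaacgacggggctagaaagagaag

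Genes that act with these receptors were counted from lists of known roles. Of 55 tested ligand genes 20 (36.4%) were higher and 0 lower by limma, with a median of 0.08. For comparison, 7.35% of all features were higher and 7.45% lower. JAK-STAT signalling genes had 8 higher (36.4%) and 1 lower (4.55%) of 22, with a median of 0.13. The kinase gene Jak2 was higher at 1.09 ± 0.11, and so were the feedback inhibitor genes Cish (0.84 ± 0.28), Socs1 (0.65 ± 0.12) and Socs5 (0.47 ± 0.07). The lower gene was Pias3, an inhibitor of STAT3 (-0.23 ± 0.08). In interleukin 1 and interleukin 17 signalling 3 of 11 were higher (27.3%) and 1 lower (9.09%), with a median of 0.05. Peli1, a ubiquitin ligase of that pathway, was higher at 2.04 ± 0.17, and Tab1, which activates the kinase TAK1, was lower at -0.63 ± 0.08.

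Chemokine receptor signalling genes and other attractant receptors had 6 higher (23.1%) and 1 lower (3.85%) of 26, with a median of -0.02. The shares of all features were 7.35% and 7.45%. Rgs16 and Rgs1, which shorten G protein signals, were higher at 2.37 ± 0.16 and 1.30 ± 0.15, and Rgs14, of the same family, was lower at -1.05 ± 0.05. The complement receptor gene C3ar1 was higher at 1.12 ± 0.08. Of 17 other cytokine receptor genes, a list that also holds the antagonist Il1rn, 8 were higher (47.1%) and 1 lower (5.88%), with a median of 0.14. Cd40 (2.57 ± 0.51), Fas (2.51 ± 0.23) and Tnfrsf1b (1.04 ± 0.24), all of the TNF receptor family, were higher, and the TGF-beta receptor gene Tgfbr2 was lower at -1.03 ± 0.03. No test of the lists against each other was made.

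**Figure D5:**
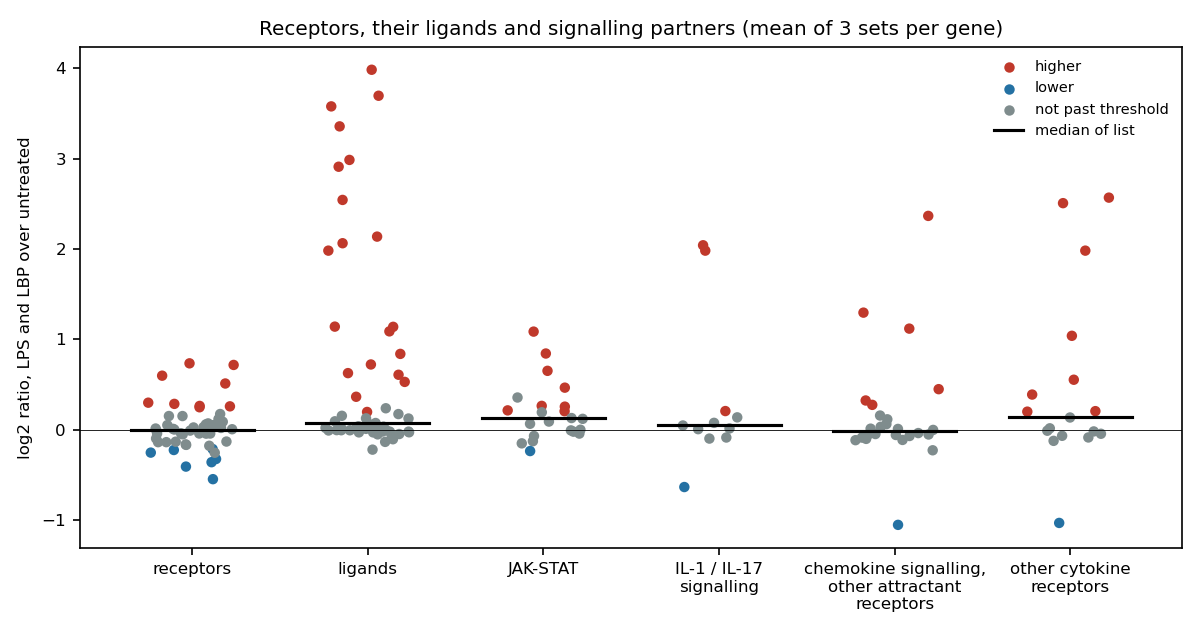
Log2 ratio of treated over untreated, as the mean of 3 sets per gene, for the 50 receptors and 5 lists of ligands and signalling partners; red is higher, blue lower, grey not past the threshold, and the black line the median of each list. Receptors lie between -0.54 and 0.74, while ligands reach 3.98.

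Marker genes of macrophages and of other cell types were compared between treated and untreated cells in the same way. Of 9 tested macrophage markers 2 were higher, Adgre1 (0.83 ± 0.07) and Spi1 (0.47 ± 0.12), and 2 lower, Csf1r and Fcgr1 (-0.47 ± 0.09). Of 38 tested markers of lymphocytes, granulocytes, fibroblasts, endothelium and epithelium in 7 lists, 1 was higher, the B cell marker gene Cd22 (0.68 ± 0.19). The other 37 did not pass, with list medians between -0.07 and 0.08. Of all features 7.35% were higher and 7.45% lower. Ratios give no levels, so which markers were expressed was not tested, nor was their part in the receptor changes.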

How the data were processed

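RNA of RAW 264.7 cells, treated or untreated for 2 h, was measured on 6 two-channel arrays. What the authors deposited is a log2 ratio per probe and array. Of the non-zero values 89.9% look like log10 ratios converted to log2. How background and dyes were corrected, and with which software, is not given in the sources used here, nor is the direction. Cy5 over Cy3 was taken as likely, and 7 of 7 genes known to be induced by LPS were then positive on all arrays. Exact zeros, 9.12% to 12.4% of each array, were treated as missing. Leaving zeros out, array medians lay between 0.00279 and 0.0161. Precision is limited by having only 6 arrays.

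Ratios of arrays with treated RNA in Cy3 were multiplied by -1, complete probes of a gene were averaged (probes with 1 platform symbol), and the arrays of a set were averaged, which gave n = 3 sets. A two-sided limma test (limma 3.58.1, R 4.3.3) of the mean was made over 11231 features with Benjamini-Hochberg adjustment and a threshold of 0.05. Sets pair the arrays by label, and deviations of same-numbered arrays correlated with r of 0.405, 0.434 and 0.137 before turning. Alternatives left out sets or arrays, used 1 dye orientation, single arrays, a dye term, centring, other handling of missing values, single probes or robust variances. Members and lists were chosen with earlier results of these data known. Every member is named. From each list at most the 4 genes past the threshold with the largest mean are named. Ligand and partner genes named beside a receptor, and single lower genes of a list, were chosen after their values were seen. All 58 member gene IDs matched RefSeq.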

Additional observations from a re-analysis of the deposited data

Results flagged for a closer look

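As the mean of their complete probes, 3 receptor genes had opposite signs in the 2 dye orientations on every array. The share of all features with such signs was not counted. The mean with treated RNA labelled Cy5 minus the mean with it labelled Cy3 was -0.97 for Cxcr6 (-0.48 against 0.50), 0.63 for Il17rb (0.27 against -0.35) and -0.31 for Il17rc (-0.19 against 0.12). In the limma fit with a dye term, that term had adjusted p = 0.0495 for Il17rb, 0.0753 for Il17rc and 0.082 for Cxcr6. As the treatment was the same in both orientations, the means near 0 of these genes come from values that cancel. The groups of arrays hold 3 each, so single outlying arrays were not tested.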

How the results depend on the processing

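The 9 higher receptors fell to between 3 and 9 when a set or an array was left out, and the 7 lower ones to between 2 and 7. Among all 11231 features, the 826 higher calls of the main fit then went to between 352 and 854. The 837 lower calls went to between 181 and 831. With the treated RNA only in Cy5, 2 were higher and 2 lower, and with it only in Cy3, 4 and 2. Among all features these fits called 347 and 292, and 408 and 247. Exact zeros kept as ratios left 5 and 2 of 58 receptors, and missing values allowed left 6 and 4 of 57. The calls among all features were then 492 and 470 of 13241, and 696 and 656 of 12390. Centring and robust variances kept the same 16 genes. With the set as a random replicate block over single arrays (consensus correlation -0.44), 11 were higher and 7 lower, sharing 15 genes. That fit called 1089 features higher and 1193 lower, more in all than any other fit. With no replicate block 7 and 5 were called, and with a dye term 8 and 7. The calls among all features were 690 and 686, and 908 and 957. Over 18 alternatives for each of 16 called genes, 180 of 288 values stayed past the threshold, 108 kept their direction without passing and 0 reversed. Many alternatives could not have reversed a gene. Single-array fits and robust variances leave the mean as it was. Leaving out a set cannot turn a gene that has the same sign in every set. Il10ra and Ccr9 passed in all 18, Cxcr3 in 17 (adjusted p = 0.0511 with zeros kept) and Il13ra2 in 15. Testing single probes called 10 genes higher and 8 lower. Signal over background was not used here, and a small error over 3 sets can hide a large spread between arrays.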
